A study of Mus musculus with 24 samples.

Results

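The clustered protocadherins are a family of adhesion receptors whose genes lie in 3 neighbouring clusters, alpha, beta and gamma, on mouse chromosome 18. Members were taken by symbol, as the Pcdha, Pcdhac, Pcdhb, Pcdhga, Pcdhgb and Pcdhgc genes with a number that are listed in both count tables of the study. This gave 58 of the 55421 genes: 14 alpha, 22 beta and 22 gamma genes. The alpha set holds the symbol Pcdha11 under 2 identifiers. The members are compared here across the alpha, beta and gamma clusters, across 2 mutant lines of Setd2, across genotypes and between embryo and yolk sac.

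Each alpha and gamma gene has its own large variable first exon and its own promoter, and is spliced to constant exons that the whole cluster shares. The beta genes are single-exon genes with no shared exon. The variable exon encodes the cadherin repeats that bind the same isoform on a facing cell, and single neurons switch on different promoters, so that each cell carries its own combination of isoforms. Promoter choice is known to depend on CTCF and cohesin, which bring distal enhancers to promoters, and on DNA methylation. The C-type genes at the 3' ends of the alpha and gamma clusters (Pcdhac1, Pcdhac2, Pcdhgc3, Pcdhgc4 and Pcdhgc5) are used more evenly between cells than the others. The family is best known in the nervous system, where it serves self-avoidance of dendrites, spacing of axons and survival of interneurons.

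The study sequenced messenger RNA from whole C57BL/6 embryos and yolk sacs at embryonic day 9.5, with 12 libraries per tissue. Setd2 encodes the enzyme that trimethylates histone H3 at lysine 36 along transcribed genes. One line carries a Setd2 null allele and the other a catalytic dead (CD) allele, and each line gave wild-type (WT), heterozygous (HE) and homozygous (HO) samples, with 2 libraries in each of the 6 groups per tissue. No transgene, Cre or drug is named in the labels, and Setd2 protein and histone methylation were not analysed here. Nothing in the labels says that replicates were separate animals, so the p-values speak of the spread between libraries alone, which may be technical. In whole embryos and yolk sacs, fewer cells that express a gene and less RNA per cell cannot be told apart.

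Levels are in CPM, the counts of a gene scaled to the size of its library, changes are log2 fold changes given with a standard error (SE), and adjusted p-values are from edgeR's quasi-likelihood F-test, adjusted by Benjamini and Hochberg's method over all genes tested, with 0.05 as the threshold for a call. The total count was 23414255 to 27674831 in embryo libraries and 16400137 to 22113787 in those of yolk sac. Setd2 was at 232 and 229 CPM in null WT embryos, 169 and 157 in null HE embryos and 93.3 and 104 in null HO embryos. The fall in null HO embryos was 1.23 on the log2 scale (SE 0.07, edgeR adjusted p = 4.67e-07). In CD embryos Setd2 did not pass the test, at 224 and 255 CPM in WT and 218 and 213 in HO libraries. In yolk sacs of the null line Setd2 was at 103 and 114 CPM in the libraries labelled WT, 114 and 120 in HE and 75.6 and 78.9 in HO, while CD WT yolk sacs had 178 and 190. The null yolk sac libraries labelled WT were thus not above the heterozygotes, and every null yolk sac value below is given against libraries so labelled. Transcripts of the Y chromosome were present in both CD WT embryos and in neither CD HO embryo, and in both CD HO yolk sacs and neither CD WT yolk sac, so that sex and genotype cannot be told apart within those pairs of groups. The same holds for null WT and null HE embryos, since both HE and neither WT library had Y transcripts. Visceral endoderm marker genes summed to 800 CPM in CD WT embryo replicate 2, against 16 to 110 CPM in the other 11 embryo libraries. Trophoblast and decidua markers summed to 21.4 CPM in null HO embryo replicate 2.

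All members lie on the forward strand of chromosome 18 of mm10. The alpha genes span 36930184 to 37187661, the beta genes 37264938 to 37524479 and the gamma genes 37661793 to 37841873. In the counts, 1221 of 1226 genes with no exon base of their own were at 0 in all 24 libraries, so bases shared by several genes did not contribute. An alpha or gamma gene is therefore measured by its unshared bases, mostly its variable exon, with a median of 2475 unshared bases for alpha and 2587 for gamma genes. The same held for genes covered only by a gene on the opposite strand, of which 457 of 461 were at 0. Pcdhga10 is covered in full by shared exons and by the antisense gene Gm26672, was at 0 in every library and was not measurable here. Pcdhb21 and Pcdhb22 overlap each other at their ends.

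The gamma cluster made up nearly all of the signal in both tissues. Over the 12 embryo libraries the gamma genes held 22384 counts, the beta genes 574 and the alpha genes 399. In yolk sacs the same sums were 4968, 105 and 125 counts. Of the 58 members, 53 had at least 1 count in embryos and 40 in yolk sacs. A filter on low counts left 24 members to test in embryos (21 gamma, 2 beta and 1 alpha) and 18 in yolk sacs (17 gamma and 1 alpha). The other members are described by their counts.

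To compare levels between genes, CPM were divided by the kilobases of unshared exon of each gene, here over the 4 WT libraries of each tissue. Pcdhgc3, a C-type gene with wide expression outside neurons, had the highest level, 13 ± 0.987 CPM per kb (SD, n = 4) in embryos. The next gamma genes in embryos were Pcdhga11 at 2.19 ± 0.232 and Pcdhgb6 at 2 ± 0.26 CPM per kb, whose ranges overlapped. The lowest was Pcdhga1, the first gene of the cluster, at 0.299 ± 0.1 CPM per kb, below Pcdhga6 at 0.428 ± 0.188 and Pcdhgb1 at 0.437 ± 0.0763, though the ranges of these 3 genes overlapped. Apart from Pcdhgc3, the measurable gamma genes of WT embryos thus lay between 0.299 and 2.19 CPM per kb. Pcdhgc4, the isoform needed for survival of interneurons, was at 0.959 ± 0.12 and Pcdhgc5, which is used late in brain development, at 0.521 ± 0.108 CPM per kb.

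The highest alpha gene was Pcdhac2, known for its part in spacing serotonergic axons, at 0.446 ± 0.0952 CPM per kb in WT embryos. The highest beta gene was Pcdhb22, at 0.114 ± 0.0795. Pcdhac2, Pcdhb22 and Pcdhgc3 also had the highest mean deposited FPKM of their clusters, in both tissues. Pcdhac2 alone held 364 of the 399 alpha counts of the embryo libraries and 124 of the 125 of the yolk sac libraries. The 13 other alpha genes reached at most 4 counts in any library, and Pcdhac1, the other alpha C-type gene, had 0 to 2.

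**Figure D1:**
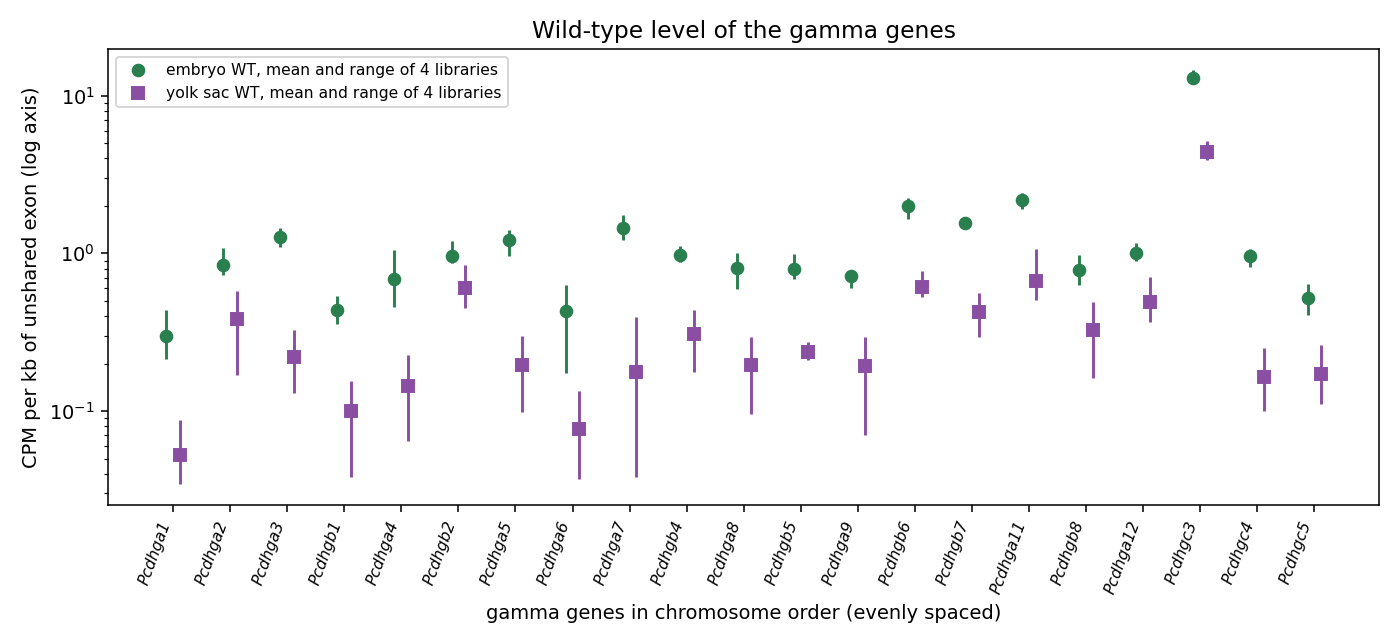
Level of each measurable gamma gene in WT libraries, in CPM per kilobase of unshared exon on a log axis, with genes in chromosome order, points at the mean and lines over the range of 4 libraries per tissue. Pcdhgc3 stands above all other gamma genes in both tissues, at 13 in embryos and 4.38 in yolk sacs.

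WT yolk sac libraries had less clustered protocadherin RNA than WT embryo libraries. Embryo and yolk sac counts came in separate tables, so tissue and any sequencing run cannot be told apart. Of the 25 members tested in a fit of all 24 libraries, 22 were lower in yolk sac and 0 higher, where 37.4% of all genes tested were lower and 34.2% higher. These 22 were Pcdhac2, Pcdhb17, Pcdhb22 and 19 of 21 gamma genes. Pcdhgc4 had the smallest p, with a change of -2.23 (SE 0.24, edgeR adjusted p = 9.21e-08). Pcdhgc3 changed by -1.28 (SE 0.138, edgeR adjusted p = 9.37e-08), Pcdhga5 by -2.39 (SE 0.306, edgeR adjusted p = 9.89e-07) and Pcdhga7 by -3.12 (SE 0.427, edgeR adjusted p = 2.32e-06). The 2 gamma genes that did not pass were Pcdhga2 (-0.81, SE 0.396) and Pcdhgb2 (-0.42, SE 0.218), both among the first 9 genes of the cluster. Pcdhgb2 had rank 4 by level among all members in WT yolk sacs, at 0.599 ± 0.178 CPM per kb, and rank 10 in WT embryos at 0.968 ± 0.157. Scaling by library totals alone moved the median of all genes from -0.08 to -0.39 and called 24 members lower and 0 higher. Of the 4 WT yolk sacs, 2 are the null libraries whose Setd2 level went against their label, and without either of them 20 members were called lower.

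The gamma cluster of null HO embryos showed a fall of its 5' genes. In order along the chromosome the gamma genes are Pcdhga1, Pcdhga2, Pcdhga3, Pcdhgb1, Pcdhga4, Pcdhgb2, Pcdhga5, Pcdhga6, Pcdhga7, Pcdhgb4, Pcdhga8, Pcdhgb5, Pcdhga9, Pcdhgb6, Pcdhga10, Pcdhgb7, Pcdhga11, Pcdhgb8, Pcdhga12, Pcdhgc3, Pcdhgc4 and Pcdhgc5. The first 9 all fell in null HO against null WT embryos, by 0.77 (Pcdhgb2) to 2.82 (Pcdhgb1) on the log2 scale. With Pcdhb17 and Pcdhb22 this made 11 members lower and 0 higher of 24 tested, where 16.5% of all genes tested were lower and 16.2% higher. None of the other 12 gamma genes passed, with changes from -0.49 (Pcdhgb4) to 0.37 (Pcdhgb8). The median change of the 21 gamma genes was -0.35 and that of all genes 0.01. Some of the 24 passed the filter only through libraries in which they are high. With no filter, 13 of 53 members were lower and 0 higher. The shares above are of genes that passed the filter, so this count cannot be set against them.

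Pcdhga5 had the smallest p. It was at 3.59 and 3.19 CPM in null WT embryos and at 1.12 and 1.38 in null HO embryos, a change of -1.44 (SE 0.222, edgeR adjusted p = 0.000508). Pcdhgb1 was at 0.927 and 1.41 CPM in WT and 0.116 and 0.21 in HO embryos, a change of -2.82 (SE 0.491, edgeR adjusted p = 0.0011). In both genes the 2 HO libraries lay below both WT libraries. This held for 14 of the 24 members, the first 10 gamma genes, Pcdhga9, Pcdhgb6, Pcdhb17 and Pcdhb22, against 31.9% of all genes tested, and 2 members, Pcdhga12 and Pcdhgc3, had both HO libraries above, against 33.3%. Pcdhga2 went from 2.01 and 1.94 CPM to 0.154 and 0.629, a change of -2.35 (SE 0.489, edgeR adjusted p = 0.00332). Pcdhga1, the first gene of the cluster, went from 1.24 and 0.608 CPM to 0.0771 and 0.21, a change of -2.67 (SE 0.632, edgeR adjusted p = 0.00703). The 2 HO libraries were not alike in depth of the fall: replicate 1 was the lower one for each of these genes. Without null WT replicate 1, 7 members were called lower, of which 6 were among the 11. Without null HO replicate 2, the library with the trophoblast markers, 12 were, of which 10 were among the 11.

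**Figure D2:**
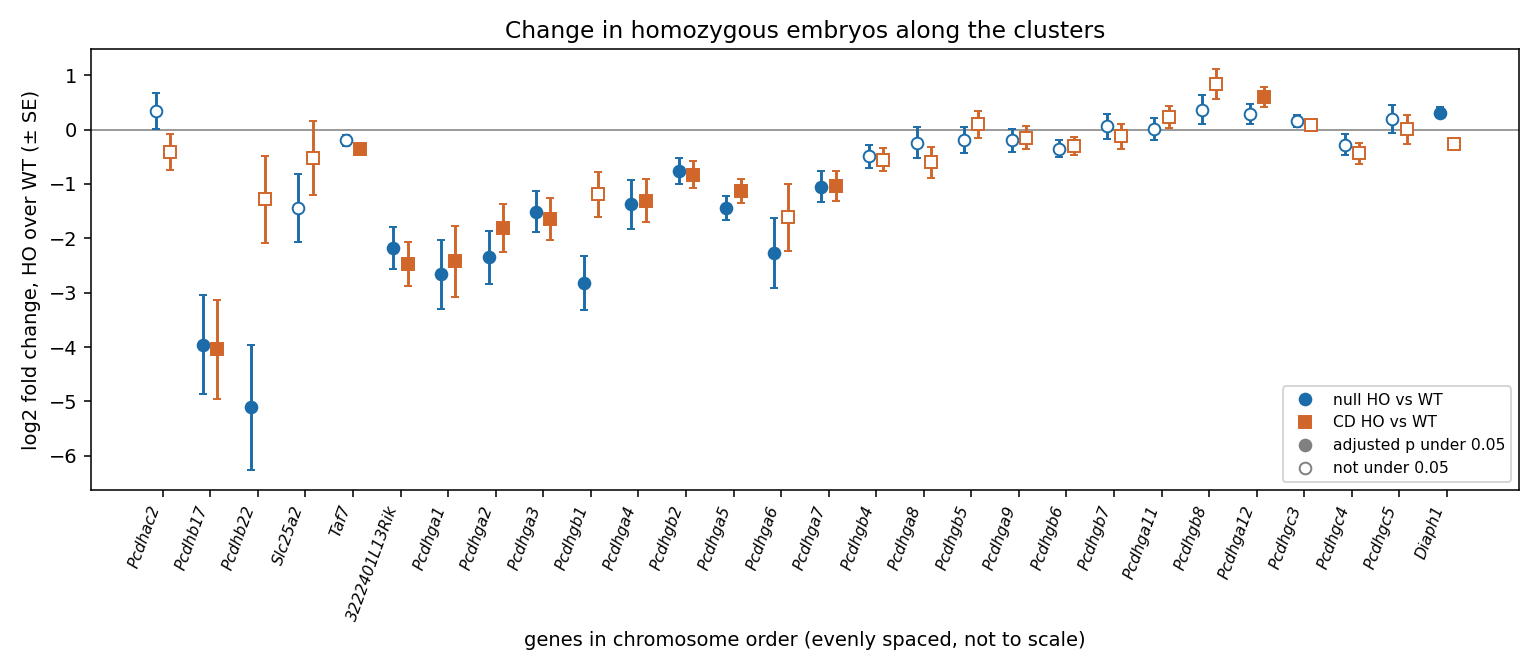
Log2 fold change of HO over WT embryos with its SE, for the null line (circles) and the CD line (squares), with genes evenly spaced in chromosome order and filled symbols for an edgeR adjusted p under 0.05. The first 9 gamma genes and the noncoding 3222401L13Rik beside them lie below 0 in both lines, and changes come near 0 or above it towards the 3' end of the gamma cluster.

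The changes differed between the 5' and the 3' part of the gamma cluster. Across the 21 gamma genes, the Spearman correlation of position with the change was 0.89 in null embryos. The points share the same 4 libraries and are not independent. Within the first 9 genes the falls did not shrink steadily from each gene to the next. From Pcdhga1 to Pcdhga7, the ninth gene, they were 2.67, 2.35, 1.51, 2.82, 1.37, 0.77, 1.44, 2.27 and 1.05 on the log2 scale. Pcdhga1, Pcdhgb1 and Pcdhga6 were also the measurable gamma genes of lowest level in WT embryos. The tenth gene, Pcdhgb4, was at 3.17 and 3.42 CPM in WT and 2.58 and 2.10 CPM in HO embryos, a change of -0.49 (SE 0.213, edgeR adjusted p = 0.098). Both HO libraries of Pcdhgb4 were below both WT libraries, but the difference did not pass. A and B types were interleaved along the cluster: Pcdhgb1 and Pcdhgb2 fell with the A-type genes beside them, and neither type passed further 3'.

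C-type genes and their neighbours in the 3' part did not pass in null HO embryos. Pcdhgc3 was at 22.8 and 22.6 CPM in WT and 27.4 and 23 in HO embryos, a change of 0.15 (SE 0.112, edgeR adjusted p = 0.326). Pcdhgc4 was at 3.71 and 2.85 CPM in WT and 2.55 and 2.85 in HO embryos, a change of -0.28 (SE 0.192, edgeR adjusted p = 0.288). Pcdhgc5 was at 2.94 and 2.09 CPM in WT and 2.35 and 3.40 in HO embryos, a change of 0.19 (SE 0.261, edgeR adjusted p = 0.617). WT and HO libraries of Pcdhgc5 overlapped. The whole gamma sum, in which Pcdhgc3 weighs most, went from 76.7 ± 3.67 to 65.6 ± 0.592 CPM (SD, n = 2).

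Null HO embryos had few beta transcripts. The 22 beta genes summed to 3.01 and 3.88 CPM in null WT embryos and to 0.27 and 0.419 CPM in null HO embryos. In counts this was 180 in the 2 WT and 17 in the 2 HO libraries, a ratio per total count of 10.3 (exact 95% interval 6.27 to 18.1, which covers counting error only). Lower counts were spread over the cluster: 17 of the 22 beta genes had a count in a null WT library and 9 in a null HO library, and no beta gene exceeded 4 counts in HO embryos. Pcdhb22 had 10 and 35 counts in WT and 0 and 1 in HO embryos, a ratio per total count of 43.9 (exact 95% interval 7.48 to 1770), with an edgeR adjusted p of 0.00529. Pcdhb17 had 12 and 8 counts against 0 and 1, a ratio of 19.5 (exact 95% interval 3.12 to 808), with an edgeR adjusted p of 0.00624. Both genes passed the filter through the control groups, where they are high. The 20 beta genes other than these gave 115 WT and 15 HO counts, a ratio of 7.48 (exact 95% interval 4.35 to 13.8).

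No alpha gene passed the test in homozygous embryos. Pcdhac2, the 1 alpha gene with enough counts to test, was at 1.47 and 0.95 CPM in null WT and 1.31 and 1.76 in null HO embryos, a change of 0.34 (SE 0.324, edgeR adjusted p = 0.455). In CD embryos it was at 1.37 and 1.62 CPM in WT and 0.842 and 1.42 in HO libraries, a change of -0.41 (SE 0.331, edgeR adjusted p = 0.439). The libraries overlapped in both lines. With heterozygotes in place of WT, Pcdhac2 was called higher in null HO embryos. The other 13 alpha genes were at or near 0 in all genotypes, so a fall in them was not detectable at this depth.

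CD HO embryos also had lower 5' gamma genes, with fewer calls. Of 24 members, 8 were lower and 1 higher, where 9.14% of all genes tested were lower and 6.92% higher. The 8 were Pcdhb17 and 7 of the first 9 gamma genes: Pcdhga1, Pcdhga2, Pcdhga3, Pcdhga4, Pcdhgb2, Pcdhga5 and Pcdhga7. The remaining pair of the first 9, Pcdhgb1 (-1.19, SE 0.409, edgeR adjusted p = 0.0681) and Pcdhga6 (-1.62, SE 0.622, edgeR adjusted p = 0.1), did not pass. With no filter, 11 of 53 members were lower and 1 higher, a count that cannot be set against the shares above, which are of genes that passed the filter. The median change of the gamma genes was -0.56, against 0.00 for all genes, and the Spearman correlation of position with the change was 0.88 over 21 genes.

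In the CD line too, Pcdhga5 had the smallest p of the members. It was at 3.21 and 2.46 CPM in WT and 1.34 and 1.24 in HO embryos, a change of -1.13 (SE 0.225, edgeR adjusted p = 0.00603). Pcdhga3 went from 3.73 and 2.87 CPM to 0.995 and 1.12, a change of -1.65 (SE 0.379, edgeR adjusted p = 0.0126). Pcdhga2 went from 1.89 and 2.79 CPM to 0.919 and 0.386, a change of -1.81 (SE 0.441, edgeR adjusted p = 0.0165). For these 3 genes both HO libraries were below both WT libraries, which held for 13 of 24 members and 28.3% of all genes tested. Pcdhga7 went from 4.46 and 3.79 CPM to 2.45 and 1.54, a change of -1.04 (SE 0.272, edgeR adjusted p = 0.0231). The 1 member called higher was Pcdhga12, the last A-type gene, at 3.97 and 3.71 CPM in WT and 5.93 and 5.75 in HO embryos, a change of 0.60 (SE 0.189, edgeR adjusted p = 0.0476). Pcdhgc3 changed by 0.09 (SE 0.112), Pcdhgc4 by -0.43 (SE 0.194) and Pcdhgc5 by 0.00 (SE 0.272), and none of the C-type genes passed. For Pcdhgc4, both HO libraries were nevertheless below both WT libraries.

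The calls of CD embryos depended on single libraries and on a term for sex. When single libraries were left out, 2 members were called lower without CD WT replicate 1, 5 were without the first and 1 without the second CD HO library. Leaving out CD WT replicate 2, the library with the visceral endoderm markers, gave 8 lower members, of which 6 were among the 8 above. None was higher without any of the 4 libraries. With sex as a term, 1 member (Pcdhga5) was called lower and 0 higher, and with heterozygotes in place of WT 4 were lower and 0 higher. All 8 changes stayed below 0 in each of these fits. Of the embryo groups, only null HO and CD HE held both sexes, so the sex term was estimated from those groups alone. The loss of calls with this term therefore does not tell sex from genotype.

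**Figure D3:**
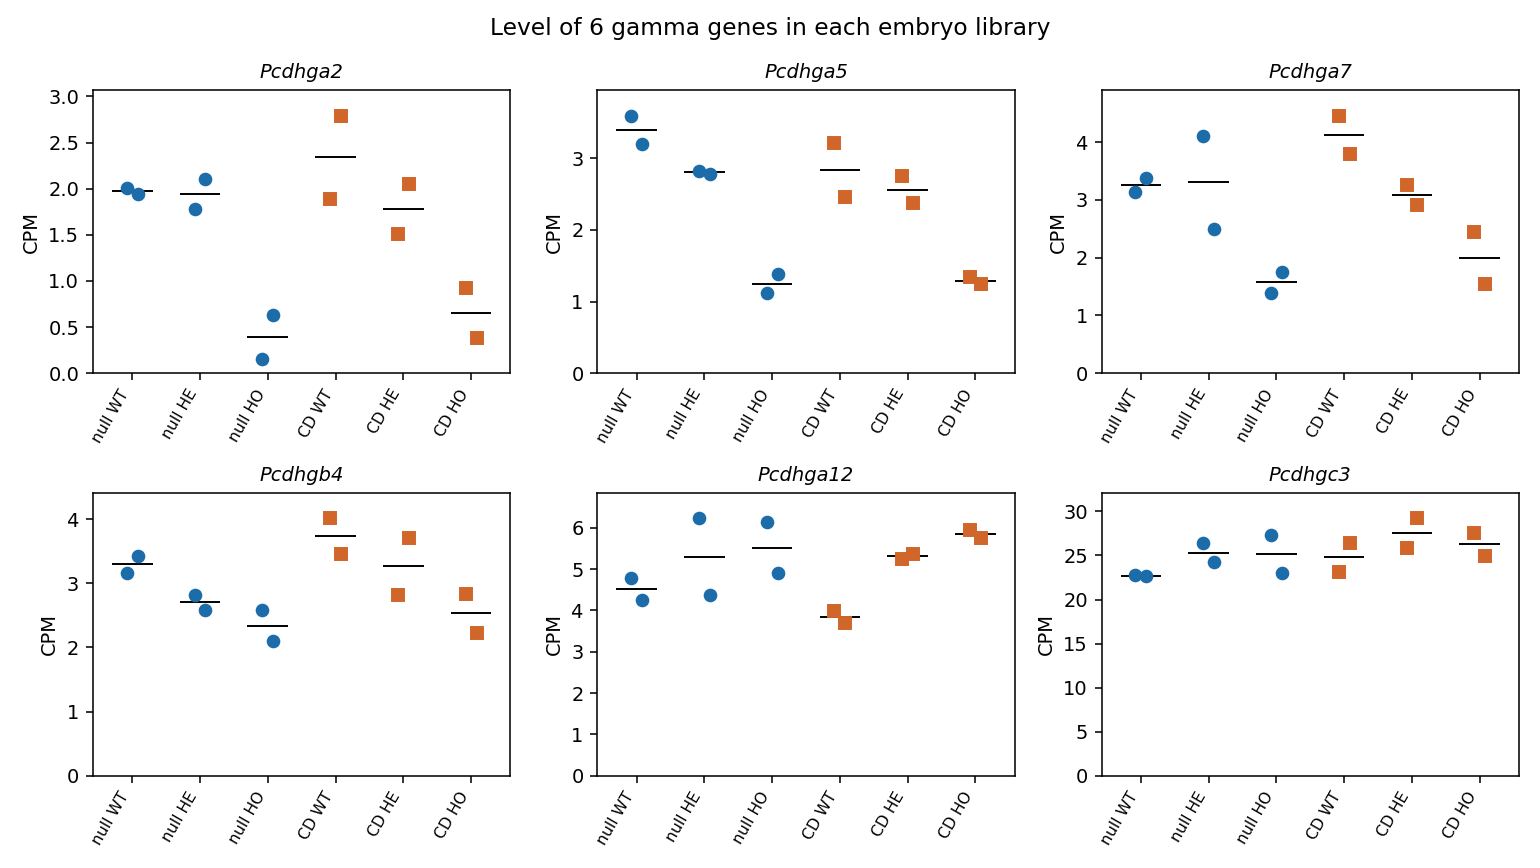
CPM of 6 gamma genes in each of the 12 embryo libraries, with 2 points (circles null, squares CD) and their mean (line) per group. Pcdhga2, Pcdhga5, Pcdhga7 and, by less, Pcdhgb4 have both HO libraries below both WT libraries in each line, and Pcdhga12 and Pcdhgc3, near the 3' end, do not.

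CD HO embryos had 14 and 11 beta counts, against 82 and 28 in CD WT embryos. The ratio per total count was 4.41 (exact 95% interval 2.83 to 7.1). The 2 CD WT libraries differed from each other, with 17 beta genes detected in replicate 1 and 8 in replicate 2, yet both held more beta counts than either HO library. Pcdhb17 had 11 and 9 counts in WT and 1 and 0 in HO embryos, a ratio of 20 (exact 95% interval 3.2 to 830), with an edgeR adjusted p of 0.0114. Pcdhb22 had 21 and 6 counts in WT and 5 and 6 in HO embryos, and its change of -1.28 (SE 0.802) did not pass. It was the 1 beta gene above 2 counts in a CD HO embryo.

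No member passed the test of a difference between the lines in its HO effect. The test of the CD effect minus the null effect called 0 of 24 members in embryos with edgeR, where 0.0208% of all genes tested were called in either direction. At an unadjusted p under 0.05 there were 2 members, Pcdhb22 (3.83, SE 1.61) and Pcdhgb1 (1.63, SE 0.668), a smaller share than the 13.4% of all genes tested, and DESeq2 called 0. The lines share no library, and over the 21 gamma genes their HO changes had a Pearson correlation of 0.91, and in yolk sacs 0.61 over 17 genes, a description over genes that are not independent. Taking the mean effect of both lines, a comparison added after the data were seen, 13 members were lower and 2 higher in HO embryos, where 20.1% and 19.7% of all genes tested were. The lower members were the first 10 gamma genes, from Pcdhga1 to Pcdhgb4, with Pcdhgb6, Pcdhb17 and Pcdhb22. The 2 higher members were Pcdhgb8 (0.60, SE 0.187, edgeR adjusted p = 0.0225) and Pcdhga12 (0.45, SE 0.132, edgeR adjusted p = 0.0179), neighbours just 5' of the C-type genes. Of these 15 calls 14 remained with sex as a term, which was estimated from the null HO and CD HE embryos alone. Pcdhgc4 was also called lower with heterozygotes in place of WT, and with WT and heterozygotes together. The higher calls rested on single libraries: without null WT replicate 2 there were 0, and without either null HO library, CD WT replicate 2 or either CD HO library there was 1.

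No member passed the test in heterozygotes. With edgeR, 0 of 24 members were called in null HE and 0 of 24 in CD HE embryos, where 0.0104% and 0.0156% of all genes tested were called. At an unadjusted p under 0.05 there were 0 members in null HE embryos and 2 in CD HE embryos, against 2.41% and 8.81% of all genes tested, and DESeq2 called 0 in both. The first 9 gamma genes had changes of -0.50 to 0.10 in null HE embryos (median -0.19) and of -0.71 to -0.07 in CD HE embryos (median -0.39). These comparisons use the same WT libraries as the homozygous ones. In yolk sacs 0 of 18 members were called in HE of either line, with 0 at an unadjusted p under 0.05 and 0 with DESeq2, and 0% of all genes tested were called.

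The sums of the first 9 and of the other gamma genes show the split in each library. The border after the ninth gene was set after the values were seen, so these sums are a description. In embryos the first 9 summed to 20 and 17.8 CPM in null WT, 16.9 and 16.8 in null HE and 5.36 and 8.56 in null HO libraries. In the CD line they summed to 20.9 and 17.7 CPM in WT, 15.1 and 16.1 in HE and 8.88 and 6.86 in HO libraries. In both lines HE libraries lay between WT and HO libraries, without overlap, while the null WT and HE libraries also differed in sex. The other 13 gamma genes summed to 57.8 ± 2.12 CPM in null WT and 58.6 ± 2.85 in null HO embryos (SD, n = 2), and to 57.6 ± 0.434 and 59.1 ± 2.04 CPM in CD WT and CD HO embryos. For them the WT and HO libraries overlapped in both lines.

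**Figure D4:**
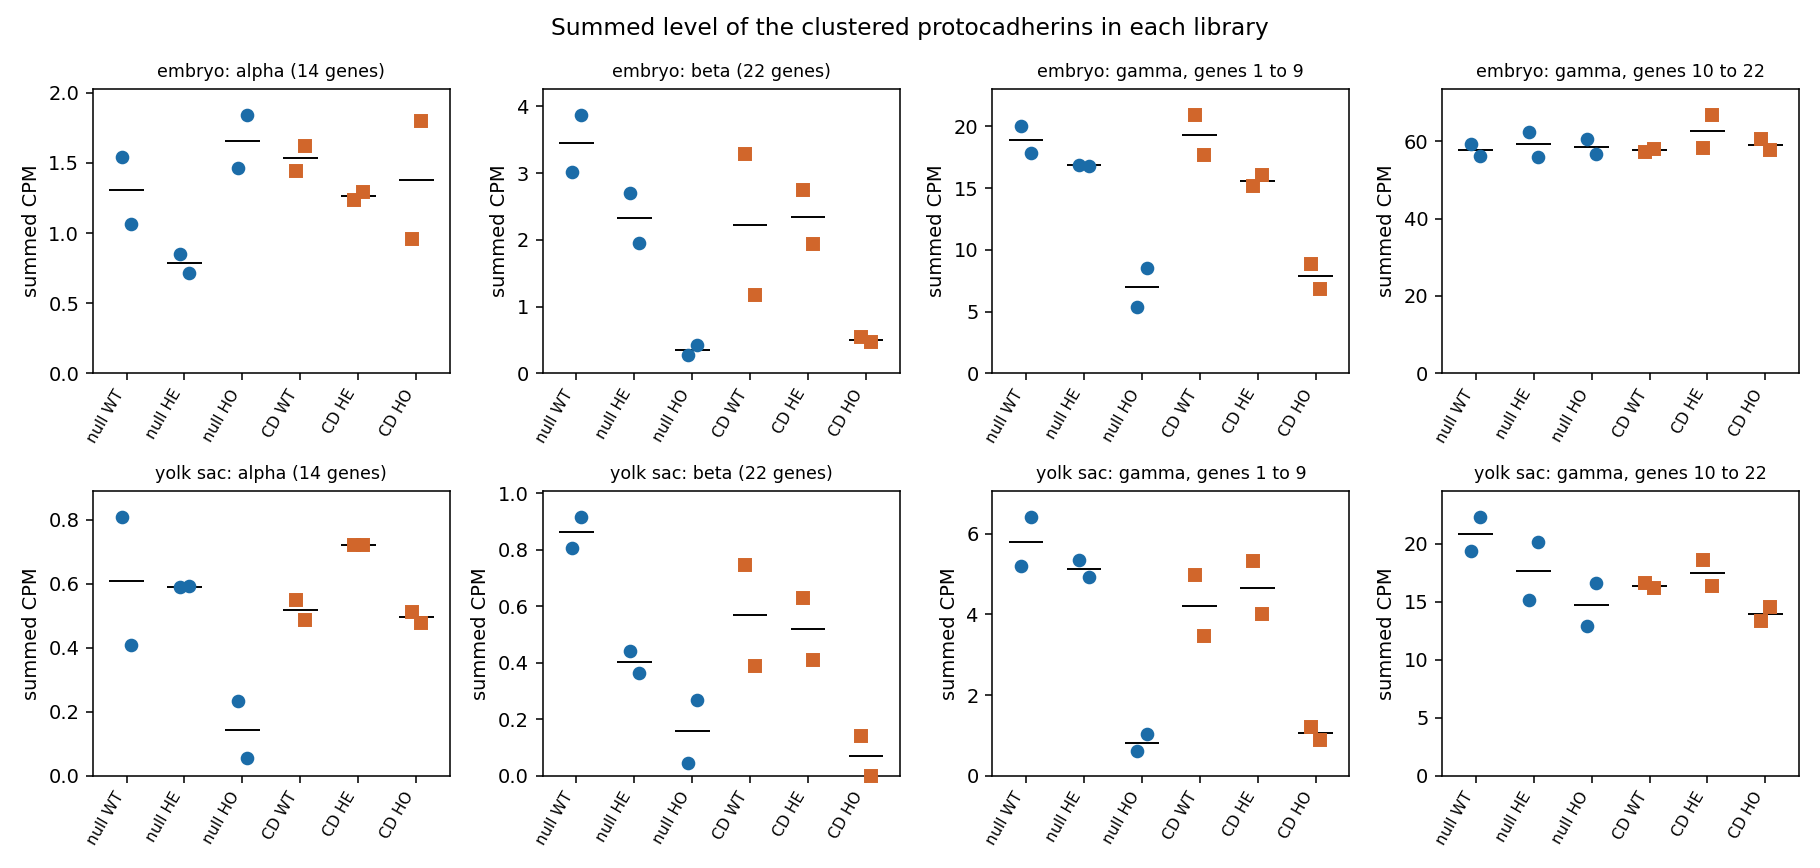
Summed CPM in each library of the alpha genes, the beta genes, the first 9 gamma genes and the other 13 gamma genes, for embryos (top) and yolk sacs (bottom), with 2 points (circles null, squares CD) and their mean (line) per group. In both tissues the beta genes and the first 9 gamma genes are lower in HO than in WT libraries of each line without overlap, while the 3' gamma genes of embryos are not.

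Homozygous yolk sacs gave few calls. Of the first 9 gamma genes 5 could be tested there, of which 2 were lower in the null and 0 in the CD line. In null HO against libraries labelled WT, 2 of 18 members were lower and 0 higher, where 3.97% of all genes tested were lower and 2.3% higher. They were Pcdhgb2, at 1.67 and 2.34 CPM in libraries labelled WT and 0.374 and 0.594 in HO (-2.05, SE 0.458, edgeR adjusted p = 0.0223), and Pcdhga5. Pcdhga5 had 11 and 15 counts in libraries labelled WT and 1 and 0 in HO, a ratio of 26.1 per total count (exact 95% interval 4.29 to 1070), with an edgeR adjusted p of 0.0479. Pcdhga5 passed the filter through groups in which it is high, and with no filter 5 of 40 members were lower in null and 3 of 40 in CD HO yolk sacs. These counts without a filter cannot be set against the shares given here, which are of genes that passed it. In CD HO yolk sacs 1 of 18 members was lower and 0 higher, where 1.89% of all genes tested were lower and 1.27% higher. This was Pcdhgb4, with 14 and 13 counts in WT and 1 and 2 in HO yolk sacs, a ratio of 8.13 (exact 95% interval 2.5 to 41.9), with an edgeR adjusted p of 0.0478. HO and WT libraries did not overlap in any of these 3 cases. Both HO libraries lay below both WT libraries for 13 of 18 members in the null and 10 of 18 in the CD line, against 27% and 23.9% of all genes tested. Without any one of the 4 libraries of its comparison, and with sex as a term, 0 members were called in either line.

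Counts of other 5' genes were low in HO yolk sacs as well, without passing. Pcdhga3 and Pcdhga7 are given as examples chosen after their values were seen. Pcdhga3, the third gene, had 12 and 10 counts in null yolk sacs labelled WT and 0 and 1 in HO, and 17 and 7 against 0 and 2 in the CD line, with edgeR adjusted p of 0.0591 and 0.106. Pcdhga7 had 10 and 20 counts in null yolk sacs labelled WT and 0 and 1 in HO, but 4 and 2 against 3 and 0 in the CD line. The first 9 gamma genes together summed to 5.81 ± 0.858 CPM in null yolk sacs labelled WT and 0.817 ± 0.296 in HO (SD, n = 2), and to 4.22 ± 1.08 and 1.05 ± 0.22 CPM in the CD line. The HO libraries were below the WT libraries in both lines. The 3' gamma genes summed to 20.8 ± 2.06 and 14.7 ± 2.6 CPM in the null line and to 16.4 ± 0.309 and 13.9 ± 0.843 CPM in the CD line, a smaller difference with no overlap of libraries.

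No gamma gene 3' of Pcdhgb4, and no C-type gene, was called in HO yolk sacs of either line. Pcdhgc3 was at 8.18 and 9.37 CPM in null yolk sacs labelled WT and 5.75 and 7.40 in HO (-0.42, SE 0.262, edgeR adjusted p = 0.387), and at 7.18 and 7.16 against 6.56 and 6.22 CPM in the CD line (-0.17, SE 0.264, edgeR adjusted p = 0.775). Pcdhgc4 changed by 0.58 (SE 0.576) and 0.25 (SE 0.573) and Pcdhgc5 by -0.55 (SE 0.643) and -0.01 (SE 0.64) in the null and CD lines. Pcdhac2 had 16 and 8 counts in null yolk sacs labelled WT and 5 and 1 in HO, without passing (edgeR adjusted p = 0.133), and 11 and 10 against 11 and 7 in the CD line. Pcdhga12 was at 2.02 and 2.90 CPM against 2.24 and 2.59 in the null line and at 1.65 and 1.51 against 2.23 and 2.21 in the CD line, without passing in either.

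Beta counts were low in yolk sacs, 34 in the null libraries labelled WT and 6 in null HO libraries, and 23 in CD WT and 3 in CD HO libraries. The ratios per total count were 5.69 (exact 95% interval 2.36 to 16.6) and 6.92 (exact 95% interval 2.09 to 36). In each line, both HO libraries held fewer beta counts than both WT libraries, and 2 of 22 beta genes were detected in HO yolk sacs of either line. No beta gene had enough counts in yolk sacs to be tested.

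**Figure D5:**
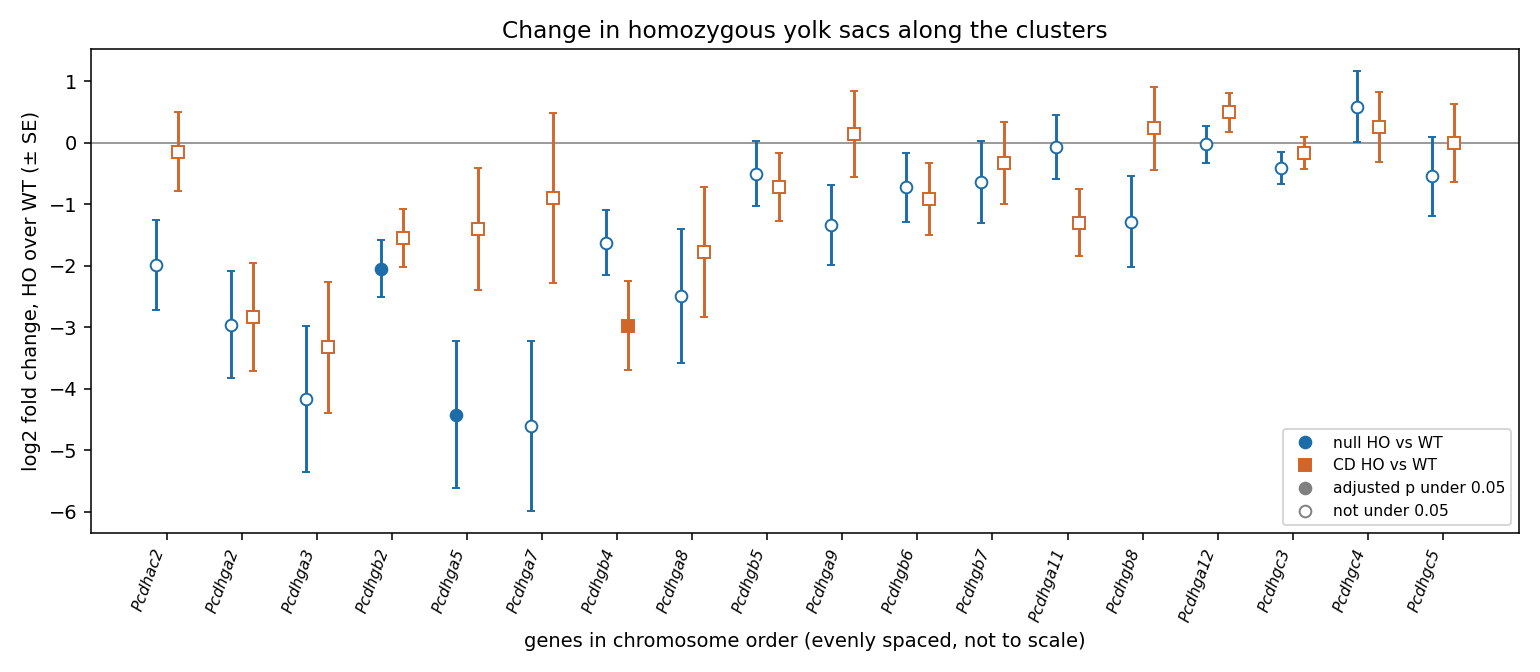
Log2 fold change of HO over WT yolk sacs with its SE, for the null line (circles, against libraries labelled WT) and the CD line (squares), for Pcdhac2 and the 17 tested gamma genes in chromosome order. Filled symbols have an edgeR adjusted p under 0.05, which holds for Pcdhgb2 and Pcdhga5 in the null line and Pcdhgb4 in the CD line, and the errors are wide at the 5' genes with few counts.

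Order along the cluster gave a Spearman correlation of position with the change of 0.85 in null and 0.82 in CD yolk sacs, over 17 gamma genes measured in the same libraries. The CD effect minus the null effect called 0 of 18 members, where 0.0282% of all genes tested were called, with 0 members at an unadjusted p under 0.05 and 0 with DESeq2. For the mean effect of both lines, 5 members were lower and 0 higher in HO yolk sacs, where 8.9% of all genes tested were lower and 8.14% higher. These were Pcdhga2 (-2.90, SE 0.618, edgeR adjusted p = 0.0084), Pcdhga3 (-3.75, SE 0.797, edgeR adjusted p = 0.00829), Pcdhgb2 (-1.80, SE 0.329, edgeR adjusted p = 0.00376), Pcdhga5 (-2.91, SE 0.784, edgeR adjusted p = 0.0251) and Pcdhgb4 (-2.30, SE 0.45, edgeR adjusted p = 0.00538). All 5 lie among the first 10 genes of the cluster. None of the 5 was called with sex as a term.

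Between tissues, 1 of 25 members, Pcdhgb4, differed in its HO effect, where 8.59% of all genes tested were lower and 8.01% higher in this difference. The yolk sac effect minus the embryo effect of Pcdhgb4 was -1.81 (SE 0.412, edgeR adjusted p = 0.00564), the mean of both lines. Its HO effect was -2.30 in yolk sacs and -0.52 in embryos, and in yolk sacs it was at 1.57 and 1.53 CPM in null libraries labelled WT and 0.608 and 0.378 in null HO, and at 0.698 and 0.633 CPM in CD WT and 0.0465 and 0.12 in CD HO. HO and WT libraries did not overlap in either line. Tissue and any sequencing run could not be told apart here either. Sex also differed between CD WT and CD HO groups, in opposite directions in embryos and yolk sacs. Pcdhgb4 was called without each of the 16 WT and HO libraries in turn. The count of lower members was 2 without embryo null HO replicate 1, yolk sac null HO replicate 2, yolk sac CD WT replicate 2 or yolk sac CD HO replicate 2, and 3 without yolk sac null WT replicate 1 or yolk sac CD HO replicate 1. At an unadjusted p under 0.05 there were 10 of 25 members, against 29.8% of all genes tested. The difference was below 0 for 20 of 21 gamma genes, with a median of -0.71 against 0.01 for all genes, and the exception was Pcdhgc4 (0.76, SE 0.343).

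Between the beta and gamma clusters lie Slc25a2, a mitochondrial carrier, Taf7, a subunit of the general transcription factor TFIID, and the noncoding RNA gene 3222401L13Rik. The last ends at 37661742 on the forward strand, just before the start of Pcdhga1 at 37661793, and was singled out after its values were seen. In embryos, 3222401L13Rik was at 3.09 and 2.43 CPM in null WT and 0.27 and 0.965 in null HO, a change of -2.18 (SE 0.39, edgeR adjusted p = 0.0014). In the CD line it was at 2.81 and 2.42 CPM in WT and 0.383 and 0.557 in HO, a change of -2.47 (SE 0.41, edgeR adjusted p = 0.00223). Its fall was thus of the size of that of Pcdhga1 beside it, and heterozygotes had 1.89 and 1.95 CPM in the null and 1.23 and 1.58 CPM in the CD line. Taf7 went from 38.2 and 37.5 to 29.5 and 36.3 CPM in the null line, without passing, and changed by -0.36 (SE 0.1, edgeR adjusted p = 0.0339) in the CD line. Slc25a2 changed by -1.44 (SE 0.63, edgeR adjusted p = 0.101) and -0.53 (SE 0.68, edgeR adjusted p = 0.646) in null and CD embryos. In yolk sacs 3222401L13Rik changed by -0.53 (SE 0.57) in the null and -1.37 (SE 0.7) in the CD line and did not pass.

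Protein-coding genes inside the clusters or within 500 kb of them moved both ways. Of 28 tested in embryos, 5 were higher and 8 lower in null HO and 1 was higher and 7 lower in CD HO, with median changes of -0.12 and -0.15. Among all genes tested, 16.2% were higher and 16.5% lower in null HO, and 6.92% and 9.14% in CD HO embryos. The 6 of smallest p in the null line were Slc35a4, a nucleotide sugar transporter (-0.74, SE 0.098), Hdac3, a histone deacetylase (-0.37, SE 0.052), Pcdh1, a non-clustered protocadherin (0.84, SE 0.12), Gnpda1, an enzyme of hexosamine breakdown (0.69, SE 0.12), Apbb3, which binds amyloid precursor protein (-0.43, SE 0.095), and Wdr55 (-0.35, SE 0.079), all with edgeR adjusted p of 0.00507 or less. None of these 6 changes reached 1 log2 unit, while that of Slc25a2 in null HO embryos, given above, did so without passing. In the CD line Slc35a4 (-0.40), Apbb3 (-0.45), Wdr55 (-0.35) and Gnpda1 (0.39) passed with the same sign, while Hdac3 (-0.14) and Pcdh1 (0.35) did not pass. Diaph1, which lies just 3' of the gamma cluster, rose by 0.31 (SE 0.1) in null HO embryos and was at -0.26 (SE 0.1) without passing in CD HO embryos.

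Among 24 known regulators of clustered protocadherin promoters, 4 were higher and 5 lower in null HO embryos and 0 higher and 5 lower in CD HO embryos, with median changes of 0.05 and -0.08. Over all genes tested the shares were 16.2% higher and 16.5% lower in null HO, and 6.92% and 9.14% in CD HO embryos. The cohesin subunit Smc1a fell in both lines, by 0.32 (SE 0.048, edgeR adjusted p = 0.000411) in the null and 0.34 (SE 0.048, edgeR adjusted p = 0.000822) in the CD line. Smc1a is on the X chromosome, and sex differed between CD WT and CD HO embryos. Dnmt3b, a DNA methyltransferase that acts on the clusters, was higher in null HO embryos by 1.02 (SE 0.18, edgeR adjusted p = 0.00102), and Wapl, which releases cohesin, by 0.27 (SE 0.053, edgeR adjusted p = 0.00243). Ctcf was lower in CD HO embryos by -0.27 (SE 0.054, edgeR adjusted p = 0.00662) and Smchd1, a repressor of the clusters, by -0.25 (SE 0.052, edgeR adjusted p = 0.00787). In yolk sacs 1 of 24 regulators was called in the null line (Wapl, 0.52, SE 0.12) and 0 in the CD line. The shares of all genes there were 2.3% higher and 3.97% lower in null HO, and 1.27% and 1.89% in CD HO. Of 18 signalling partners, such as the kinases Ptk2b and Ret, 6 were higher and 5 lower in null HO embryos and 0 higher and 5 lower in CD HO embryos. Marcks, a membrane protein acting on actin downstream of the gamma proteins, fell in both, by 1.02 (SE 0.1) and 0.52 (SE 0.1) on the log2 scale.

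The genes of non-clustered protocadherins lie outside the 3 clusters, though Pcdh1 and Pcdh12 are within 500 kb of them. Pcdh1 was also counted among the neighbouring genes above. Of the 12 non-clustered protocadherins, 2 were higher and 6 lower in null HO embryos and 0 higher and 4 lower in CD HO embryos, with medians of -0.69 and -0.54. Over all genes tested, 16.2% were higher and 16.5% lower in null HO, and 6.92% and 9.14% in CD HO embryos. Pcdh17 was lower in all 4 homozygous comparisons, by -2.55 (SE 0.24) and -2.08 (SE 0.24) in null and CD embryos and by -3.35 (SE 0.25) and -3.19 (SE 0.25) in null and CD yolk sacs, with edgeR adjusted p of 0.000201 or less. Pcdh10 (-1.37, SE 0.27 and -2.05, SE 0.31) and Pcdh19 (-0.67, SE 0.17 and -0.88, SE 0.17) fell in embryos of both lines. Pcdh19 rose in null HO yolk sacs by 2.81 (SE 0.56), opposite to embryos. Of 16 classical cadherins tested in embryos, 4 were higher and 5 lower in null HO and 1 higher and 4 lower in CD HO, with medians of -0.03 and -0.05. Cdh11, a mesenchymal cadherin, fell in all 4 homozygous comparisons, by 1.51 and 0.94 on the log2 scale in embryos and 1.84 and 1.40 in yolk sacs of the null and CD lines.

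Neuron markers were tested as the cell type in which the family is best known. Of 22 neuron markers, 16 were lower and 0 higher in null HO embryos and 6 lower and 0 higher in CD HO embryos, with medians of -1.54 and -0.61. Among all genes tested, 16.5% were lower and 16.2% higher in null HO, and 9.14% and 6.92% in CD HO embryos. Tubb3, a neuronal tubulin, fell by 2.54 (SE 0.13) and 1.42 (SE 0.13) on the log2 scale. Their sum was 225 to 242 CPM in null WT, 112 to 119 in null HO, 152 to 176 in CD WT and 117 to 120 CPM in CD HO embryos, with none of the 22 at 0 in all libraries. In yolk sacs the same genes, 3 of them at 0 in all libraries, summed to 31.2 to 33.4 CPM in null libraries labelled WT and 39.1 to 51.6 in null HO, and to 25.4 to 36.5 in CD WT and 35.6 to 46.9 CPM in CD HO. Of the 12 tested there, 1 was higher and 1 lower in null HO and 1 higher and 0 lower in CD HO. The shares of all genes in yolk sacs were 2.3% higher and 3.97% lower in null HO, and 1.27% and 1.89% in CD HO. The sum of the neuron markers was thus not lower in HO yolk sacs. Neuron markers were scarce in that tissue. Of the 22, 21 were lower and 0 higher in WT yolk sacs than in WT embryos, where 37.4% of all genes tested were lower and 34.2% higher. Of 18 neural progenitor markers, 5 were higher and 8 lower in null HO and 3 higher and 5 lower in CD HO embryos. The part of neurons and neural progenitors in the protocadherin changes was not tested in either tissue.

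Other cell type lists also differed between groups. Among all genes tested in embryos, 16.2% were higher and 16.5% lower in null HO, and 6.92% and 9.14% in CD HO. In yolk sacs these shares were 2.3% and 3.97% in null HO, and 1.27% and 1.89% in CD HO. Of 11 primitive erythroid markers, 6 were lower and 0 higher in null HO embryos and 0 were called in CD HO embryos. Their sum was 99.2 and 1380 CPM in null HO and 2170 and 3200 CPM in null WT embryos. Of 13 visceral endoderm markers tested in embryos, 1 was lower in null HO and 10 in CD HO, where CD WT replicate 2 held most of the signal. In yolk sacs, in which these markers summed to 28900 to 48500 CPM and define the tissue, 4 of 15 were lower in null HO and 3 of 15 in CD HO. Of 10 neural crest markers, 3 were higher and 3 lower in null HO embryos and 2 higher and 2 lower in CD HO embryos. Endothelial markers (11 tested) gave 2 higher and 2 lower in null HO and 0 higher and 1 lower in CD HO embryos, leukocyte markers (4 tested) 2 lower in null HO and 0 in CD HO, and trophoblast and decidua markers (5 tested) 4 higher and 1 lower in null HO and 1 higher in CD HO. The part of these cell types in the protocadherin changes was not tested.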

How the data were processed

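The authors deposited 1 table per tissue with raw counts and FPKM for 55421 genes in 12 libraries each. Per the submitters' processing notes, fastp 0.22.0, HISAT2 2.2.1, featureCounts 2.0.1, DESeq2 1.32.0 and mm10 were used. The deposited FPKM equalled the count over gene length and library total (relative tolerance 0.001) and were used only to rank members. That shared and antisense-covered bases were not counted was inferred from GENCODE M21 and the values. Counts were fitted per tissue with edgeR 4.0.16 in R 4.3.3 (TMM scaling, filterByExpr with a minimum count of 10 and a minimum total of 15, 1 coefficient per group), and both tissues together for tissue contrasts. CPM use TMM-adjusted totals, the SE is the change over the root of the F statistic, and the code was tested on simulated counts. Alternatives were DESeq2 1.42.0, library totals, other filters, a replicate block, a sex term, other controls and leaving out each library. The members and gene lists were chosen with earlier results of these data known. Genes were named by smallest p per cluster and comparison (up to 4 per direction), with the C-type genes and the member of highest mean FPKM, up to 4 per gene list and up to 6 neighbours.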

Additional observations from a re-analysis of the deposited data

Results flagged for a closer look

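Pcdhgb4, the tenth gene of the gamma cluster, was singled out because its HO effect differed between tissues by a test of the difference itself. The effect in yolk sacs minus that in embryos, as the mean of both lines, was -1.81 (SE 0.412, edgeR adjusted p = 0.00564). A difference below 0 was not particular to Pcdhgb4: those of the first 9 gamma genes were -2.25 to -0.37 (median -1.03), with 0 called. In both lines HO libraries of Pcdhgb4 lay below WT libraries in both tissues. The null yolk sac libraries labelled WT had a Setd2 level that went against their label. In the CD line, Y transcripts were in WT but not HO embryos, and in HO but not WT yolk sacs. CD HO yolk sacs held only 1 and 2 counts of Pcdhgb4. Within yolk sacs, its fall in the CD line and in the mean of both lines was not called with sex as a term. The call of the difference between tissues was kept in all 22 alternatives, with differences from -2.16 to -1.52.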

How the results depend on the processing

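In embryos, null HO against WT gave 11 lower members and 7 to 12 when each library was left out in turn; 7 were lower with a filter of 1 CPM in 2 libraries, and 1 was higher (Pcdhac2) with heterozygotes as controls. CD HO against WT gave 8 lower and 1 higher, and 1 to 8 lower and 0 higher without each library. The lower calls were 4 with heterozygotes as controls, 5 with the 1 CPM filter, 1 with a sex term and 4 with DESeq2; the higher calls were 2 with library totals or the 1 CPM filter and 0 with heterozygotes, the sex term or DESeq2. The difference between lines gave 1 higher member without a filter. The mean of both lines gave 2 higher members, 1 with heterozygotes, with WT and heterozygotes together or with DESeq2, and 0 to 2 without each library. In yolk sacs, null HO gave 2 lower members, 5 without a filter, 1 with the 1 CPM filter or DESeq2, 0 with a sex term and 0 without each library. CD HO gave 1 lower member, 2 with heterozygotes, 3 with WT and heterozygotes together or without a filter, and 0 with library totals, the sex term, DESeq2 or without each library. The mean of both lines gave 5 lower members, 3 with the 1 CPM filter, 0 with a sex term and 4 to 5 without each library. The tissue difference of the HO effect gave 1 lower member, 2 without a filter or with the 1 CPM filter, and 1 to 3 lower and 0 to 1 higher without each library. WT and heterozygotes together, and the mean of both lines, were chosen after seeing the data. The cause of these changes was not tested, except that stricter filters test fewer members.

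Replicate numbers did not pair the libraries (correlations of -0.055 to 0.175 within lines). With the replicate block, 11 members were lower in null HO embryos, 7 lower and 1 higher in CD HO embryos, 1 lower in null and 0 in CD HO yolk sacs, and 19 lower in WT yolk sacs against WT embryos. Of the called members whose alternatives were tabulated, 4 of the 22 for WT yolk sac against WT embryo and all for the homozygous comparisons, none changed sign. Alpha genes other than Pcdhac2, and beta genes in yolk sacs, had too few counts for a test.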
